A study of Mus musculus with 6 samples.

Results

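The Wnt family genes described here are all genes of the deposited table whose symbol is Wnt, Fzd, Sfrp, Dkk or Rspo followed by a digit. They number 42 of 49377 genes, namely 19 Wnt, 10 Fzd, 4 Sfrp and 4 Dkk genes and 5 Rspo symbols, 1 of which (Rspo4os) is an antisense transcript of the Rspo4 locus and not an R-spondin. RNA was measured in separated epidermis of C57BL/6 mouse embryos at E19.5, shortly before birth, in 3 libraries labelled Rictor -/- (263, 265 and 266) and 3 labelled control (261, 262 and 264). Rictor is a defining subunit of mTOR complex 2, and the design compares mRNA levels between the genotypes. The titles shorten the mutant to ricEKO, and the labels name neither a Cre driver nor the alleles of the controls. Whether the libraries came from separate animals is not labelled, so p-values measure the spread between these libraries, part of which may be technical. Values are FPKM, in which the fragments of a gene are divided by its length and by the size of the library, so that levels of different genes can be compared.

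Wnt proteins are secreted lipid-modified ligands that bind Frizzled (Fzd) receptors. With the co-receptors Lrp5 and Lrp6 they stabilise beta-catenin, and through other receptors they steer cell polarity and movement. Sfrp proteins bind Wnts through a domain like that of Frizzled, most Dkk proteins block Lrp5 and Lrp6, and R-spondins (Rspo) strengthen the signal by keeping Frizzled receptors on the cell surface. In skin the pathway is known for starting hair follicles and maintaining the epidermal basal layer.

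Rictor itself was not lower in the libraries labelled Rictor -/-. Libraries 263, 265 and 266 had 6.83, 7.04 and 6.86 FPKM, controls 261, 262 and 264 had 5.63, 6.02 and 4.37 FPKM, and limma gave an adjusted p of 0.0694. Reads from exons outside a deleted stretch would count towards such a value, so it does not check the labels, and every direction below is that of the labels. Summed FPKM per library ran from 609375 to 672925, and steps between low values gave relative depths of up to 1.21 times that of control 261, the shallowest. Control 264 stood apart, with 1.84% of FPKM in mitochondrial genes, against 3.86% and 4.13% in controls 261 and 262. Libraries labelled Rictor -/- had 4.39% to 4.57%. Control 264 also had a trend of its values against exonic gene length (Spearman's rho across genes -0.359). That rho was -0.00728 and 0.0028 in controls 261 and 262, and 0.173, 0.191 and 0.263 in libraries 263, 265 and 266. Neither measure overlapped between the groups, so a length trend is confounded with the labels. A length adjustment is among the alternatives below. Xist and Y-linked genes marked 1 male and 2 females among the libraries labelled Rictor -/-, and 2 males and 1 female among controls. The keratinocyte markers Krt10, Krt1 and Krt5 were among the most abundant genes in every library, and the 6 markers of that list summed to 35343 to 36633 FPKM in libraries labelled Rictor -/-, against 33067 to 33974 FPKM in controls, with 2 of 6 higher. One of these was Krt5, at a ratio of means of 1.48 (limma adjusted p = 0.00972). Krt10 lay lower without overlap, at a ratio of means of 0.885, but did not pass (limma adjusted p = 0.251). Krt1 was level, at a ratio of means of 1. All 6 endothelial markers stayed under 1 FPKM. Skeletal muscle markers summed to 7.82 to 22.6 FPKM in libraries labelled Rictor -/-, highest in 266, against 6.2 to 13.6 FPKM in controls. Adipocyte markers summed to 5.33 to 11 against 6.09 to 16.6 FPKM, highest in control 264. None of the 3 tested muscle, 1 tested adipocyte and 2 tested dermal papilla markers was called. Of the tested Schwann cell markers 1 of 3 was higher, and of the tested Merkel cell markers 1 of 2. Such counts stand beside 7.91% higher and 15.6% lower over all tested genes. The hair follicle markers summed to 926 to 1056 FPKM in libraries labelled Rictor -/-, against 1474 to 1818 FPKM in controls, with 7 of 10 lower. Melanocyte markers (272 to 308 against 364 to 447 FPKM, 4 of 6 lower), myeloid markers (23.9 to 25.5 against 34.7 to 44.2 FPKM, 5 of 6 tested lower) and T cell markers (1.47 to 4.32 against 7.93 to 11.6 FPKM) were also lower in sum. Of the 6 T cell markers 3 were tested and called lower, but 2 of these, Il2rb and Cd3e, reached the 1 FPKM limit for testing through controls alone, which favours such a call. Of 10 dermal fibroblast markers, 4 were under 1 FPKM in every library and 2 of the 6 tested were higher (sums of 126 to 161 against 115 to 144 FPKM), where 2 of the 6 reached the limit through the libraries labelled Rictor -/- alone. Most of these sums was Dcn, with means of 111 and 105 FPKM, which did not pass. Col1a2 was called higher (means of 10.1 and 6.49 FPKM), and Col3a1 was higher without overlap but did not pass (13.9 and 7.03 FPKM). In bulk tissue, fewer cells of a type and less RNA per cell cannot be told apart. The part of these markers in the values below was not tested.

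Of the 42 genes, 24 averaged 1 FPKM or more in at least one of the groups, the limit for testing. They were 12 Wnt, 8 Fzd, 2 Sfrp and 2 Dkk genes, and no R-spondin was among them. Only Dkk4 entered through the libraries labelled Rictor -/- alone. Wnt5b, with means of 1.17 and 1.51 FPKM in the groups labelled Rictor -/- and control, lay just inside the limit, and Wnt2b, at 0.786 and 0.524 FPKM, just outside.

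**Figure D1:**
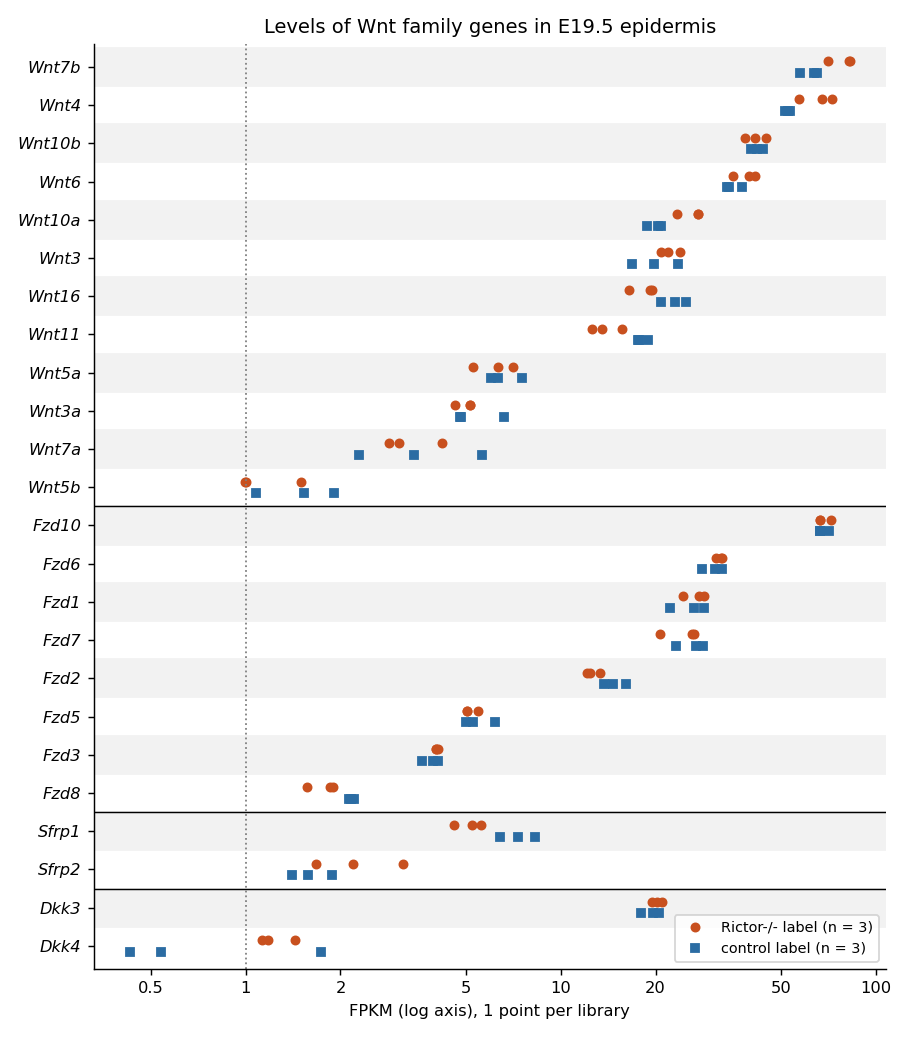
FPKM of the 24 tested Wnt family genes on a log axis, with 1 point per library (circles, libraries labelled Rictor -/-, drawn above squares, libraries labelled control) and a dotted line at 1 FPKM. Wnt7b, Wnt4 and Fzd10 lie highest in both groups, and for most genes the points of the groups lie on top of each other.

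Late fetal epidermis held a broad set of Wnt ligand mRNAs led by Wnt7b and Wnt4. These 2 genes made up 43.9%, 44.7% and 45.7% of the summed Wnt FPKM in libraries 263, 265 and 266 labelled Rictor -/-, against 39.8%, 40.4% and 37.6% in controls 261, 262 and 264. The sum over all 19 Wnt genes was 314, 313 and 339 FPKM in the libraries labelled Rictor -/-, against 295, 290 and 289 FPKM in controls, ranges that did not overlap. Single ligands went both ways: of 12 tested Wnt genes, 5 had a positive and 7 a negative log2 difference. The Frizzled sum was 178, 179 and 170 FPKM against 182, 173 and 177 FPKM, which did overlap. The Sfrp sum was 7.33, 7.96 and 7.58 FPKM in the libraries labelled Rictor -/- and 10.2, 8.48 and 9.07 FPKM in controls, without overlap. These sums carry no test, and 45.8% of all tested genes did not overlap between the groups either.

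Against control, 2 of the 24 tested genes rose (Wnt10a and Wnt7b), 2 fell (Wnt11 and Sfrp1) and 20 did not pass limma's adjusted p threshold of 0.05. That is 16.7% of the tested members, beside 23.5% of all 13500 tested genes (7.91% higher and 15.6% lower), so the family was not called more often than genes at large. Differences were small: the largest was 0.44 in size on the log2(FPKM + 1) scale, and the median size was 0.14, against 0.19 over all tested genes. The median signed difference was -0.01, against -0.06 over all tested genes. The groups did not overlap in 8 of the 24 members (33.3%, with 3 higher and 5 lower), beside 45.8% of all tested genes (16.6% higher and 29.2% lower). The split of all calls depended on scaling between libraries, with 33.7% of called genes higher as deposited and 44.7% to 49.9% after median, trimmed mean or quantile scaling. All 4 calls were fragile: none of the 24 members passed without library 266, without control 261 or with a term for sex, where 6, 6 and 6 of the 24 had an unadjusted p under 0.05 in limma, against 7 of the 24 in the fit reported here. Without a filter on low values all 42 members were tested and none passed, with 9 of the 42 at an unadjusted p under 0.05. Calls over all genes fell in these settings too, from 1068 higher and 2101 lower. They were 537 and 1001 without library 266, 634 and 1289 without control 261, and 634 and 1218 with a term for sex. Without a filter they were 724 and 1507 of 26986 tested. Whether the family lost more calls than genes at large was not tested.

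**Figure D2:**
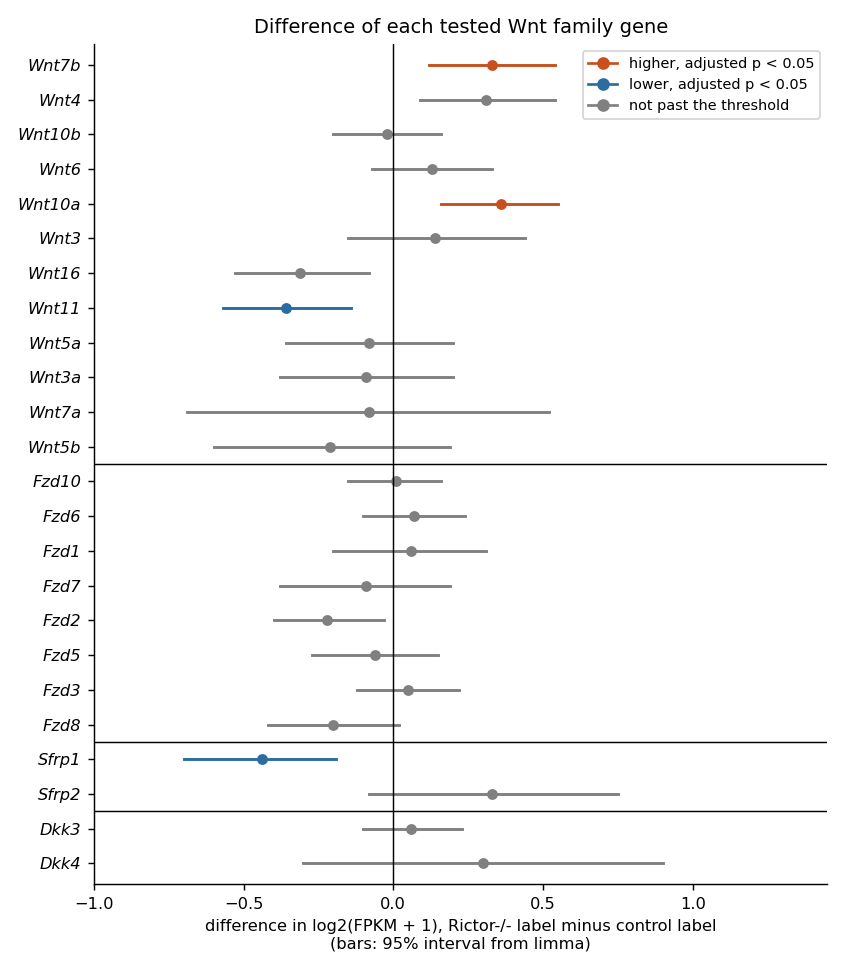
Difference in log2(FPKM + 1) between libraries labelled Rictor -/- and control for each tested Wnt family gene, with its 95% interval from limma (n = 3 per group). Wnt7b and Wnt10a lie to the right of 0 and Wnt11 and Sfrp1 to the left past the threshold, while no Frizzled gene is past the threshold.

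Among the ligands, Wnt7b, a ligand that acts through beta-catenin in several epithelia, was the most abundant (ENSMUSG00000022382, GRCm38 chromosome 15, 85535437 to 85582473, minus strand). It stood at 70.7, 82.8 and 82.1 FPKM in libraries labelled Rictor -/-, against 64.9, 63.9 and 57.3 FPKM in controls. All 3 values of the first group lay above all 3 of the second, a ratio of means of 1.27 and a log2 difference of 0.33 ± 0.09 (SE; limma adjusted p = 0.0377). The call was lost without any 1 library other than 263, control 264 included (limma adjusted p = 0.0527 to 0.127). Wnt10a, a ligand needed for teeth and other skin appendages (ENSMUSG00000026167, chromosome 1, 74791516 to 74804179, plus strand), stood at 27.3, 23.3 and 27.2 FPKM, against 20.9, 20.3 and 18.8 FPKM in controls. The groups again did not overlap, and the difference was 0.36 ± 0.08 (adjusted p = 0.0254, limma). It fell short of the threshold without 263, 266, or controls 261 or 262 (limma adjusted p = 0.0540 to 0.0934).

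Wnt4, known for its roles in kidney and ovary development (chromosome 4, 137277489 to 137299726, plus strand), was the second most abundant ligand. It had 67.5, 57.2 and 72.9 FPKM in libraries labelled Rictor -/-, against 52.7, 53.4 and 51.3 FPKM in controls. The groups did not overlap, yet the difference of 0.31 ± 0.10 did not pass (limma adjusted p = 0.0546), and it did pass after median, trimmed mean or quantile scaling, with array weights, after length adjustment and without 265 (limma adjusted p = 0.0377, 0.0291, 0.0475, 0.00854, 0.0312 and 0.0259).

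Wnt11, known for steering cell movements without beta-catenin (ENSMUSG00000015957, chromosome 7, 98835112 to 98855195, plus strand), was lower. It stood at 15.7, 12.6 and 13.5 FPKM in libraries labelled Rictor -/-, against 17.7, 18.9 and 17.6 FPKM in controls, with no overlap. The log2 difference was -0.36 ± 0.09 (limma adjusted p = 0.0316), and the call was lost without 265, 266, or controls 261 or 262 (limma adjusted p = 0.0760 to 0.104), after trimmed mean scaling (0.0597) and after length adjustment (0.0537). Wnt16, a ligand known from bone (chromosome 6, 22288227 to 22298522, plus strand), had 16.5, 19.48 and 19.2 FPKM, against 23.0, 25.01 and 20.9 FPKM in controls. These groups did not overlap either, and the difference of -0.31 ± 0.09 did not pass (limma adjusted p = 0.0578), while it did without control 264, with the filter raised to 5 FPKM and with array weights (adjusted p = 0.0306, 0.0472 and 0.00732, limma).

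**Figure D3:**
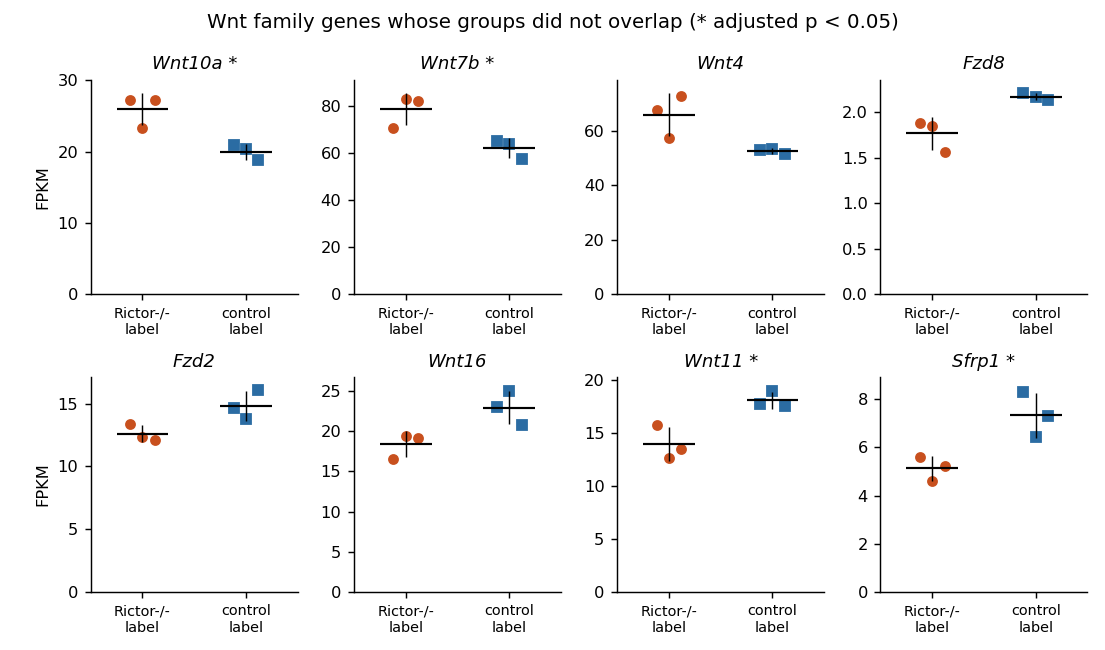
FPKM per library of the 8 tested Wnt family genes whose groups did not overlap, with 1 point per library, the mean as a horizontal line and the SD as a vertical line (n = 3 per group). Wnt10a, Wnt7b and Wnt4 are higher and Fzd8, Fzd2, Wnt16, Wnt11 and Sfrp1 lower in the libraries labelled Rictor -/-, and an asterisk marks the 4 with an adjusted p below 0.05.

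The stretch before the start of Wnt11 is shown because Wnt11 is the 1 called member with an entry in the RefSeq promoter table, and the stretch holds the letters ATCAAAG, a form of the site bound by the TCF and LEF factors that act with beta-catenin. The 250 bases run over chr7:98834862-98835111 on the plus strand of GRCm38.p6 (RefSeq) and end just before the transcription start, 5′ to 3′, with the match in capitals.
Wnt11: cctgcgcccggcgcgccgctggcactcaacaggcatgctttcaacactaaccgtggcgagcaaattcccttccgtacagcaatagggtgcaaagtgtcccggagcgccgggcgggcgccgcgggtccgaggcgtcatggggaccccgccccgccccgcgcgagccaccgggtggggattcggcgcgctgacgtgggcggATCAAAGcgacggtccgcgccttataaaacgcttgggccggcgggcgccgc
The match begins 51 bases before the start. On either strand, as ATCAAAG or CTTTGAT, the letters occur in 3.73% of 32851 promoter windows of 300 bases in the RefSeq table. Wnt10a, Wnt7b and Sfrp1 have no entry and were not searched. Of 27 members with an entry, Wnt11 and Wnt5b had a match, in 2 of 30 windows. Such a match is a description of the letters and not evidence of binding.

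The other tested ligands did not pass. Wnt10b, a ligand of early hair follicles, was the third most abundant and stood at 38.5, 41.4 and 44.8 FPKM in libraries labelled Rictor -/-, against 44.0, 42.1 and 40.3 FPKM in controls. The groups overlapped, and the 95% interval of the log2 difference ran from -0.20 to 0.16. Wnt6, an ectodermal ligand, had 39.5, 35.2 and 41.4 FPKM against 33.6, 34.3 and 37.6 FPKM (0.13 ± 0.08, interval -0.07 to 0.33), and passed only with array weights or after length adjustment among the alternatives run (limma adjusted p = 0.0219 and 0.0376). Wnt3, with means of 22.2 ± 1.57 and 20.1 ± 3.43 FPKM (SD) in the groups labelled Rictor -/- and control, differed by 0.14 ± 0.12. Wnt5a, the best known ligand of the polarity branch, averaged 6.21 ± 0.895 and 6.61 ± 0.796 FPKM (interval -0.36 to 0.20). For Wnt3a, Wnt7a and Wnt5b the differences were -0.09 ± 0.12, -0.08 ± 0.25 and -0.21 ± 0.16. Wnt7a had 3.42, 2.30 and 5.63 FPKM in controls 261, 262 and 264, with control 264 highest.

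The order of the ligands was Wnt7b, Wnt4, Wnt10b and Wnt6 from the top in both groups. In the libraries labelled Rictor -/- the ranges of Wnt7b and Wnt4 overlapped, as did those of Wnt10b and Wnt6, while in controls these 4 genes were all apart. Below them, Wnt10a, Wnt3, Wnt16 and Wnt11 followed in that order in the libraries labelled Rictor -/-, where of these neighbours only Wnt10a and Wnt3 overlapped. In controls the order was Wnt16, Wnt3, Wnt10a and Wnt11, and there each overlapped its neighbour. Of the 7 remaining ligands, Wnt2b ranged from 0.652 to 1.03 FPKM in libraries labelled Rictor -/- and from 0.423 to 0.601 FPKM in controls. Wnt9a stayed at or under 0.541 FPKM in every library, Wnt9b, Wnt2, Wnt8a and Wnt8b were at or under 0.178 FPKM, and Wnt1 was above 0 in library 263 alone, at 0.00933 FPKM.

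By position, 4 pairs of Wnt genes lie within 100 kb of each other. In 3 of them one gene lay above the limit for testing and its neighbour below it, namely Wnt3 beside Wnt9b and Wnt3a beside Wnt9a on chromosome 11, and Wnt10b beside Wnt1 on chromosome 15. Wnt9b stood at 0.00727 of Wnt3 or less in every library, and Wnt1 lower still beside Wnt10b. Wnt9a stood at 0.0409 to 0.113 of Wnt3a, a smaller gap. In the pair Wnt6 and Wnt10a, which lie 6193 bases apart on the same strand of chromosome 1, both were expressed. The ratio of Wnt10a to Wnt6, which scaling between libraries leaves nearly untouched, was 0.690, 0.663 and 0.657 in libraries labelled Rictor -/-, against 0.621, 0.592 and 0.498 in controls. The lowest of the first group lay above the highest of the second, and this ratio carries no test.

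Of the receptors, Fzd10 led with 66.6, 71.9 and 66.5 FPKM in libraries labelled Rictor -/-, against 66.4, 66.7 and 71.0 FPKM in controls, a log2 difference of 0.01 with an interval of -0.15 to 0.16. Fzd6, known in mice for setting hair direction, had 31.2, 32.4 and 32.6 FPKM against 32.6, 30.9 and 28.2 FPKM (interval -0.10 to 0.24). Fzd1 and Fzd7 followed, with means of 26.7 ± 2.13 and 24.5 ± 3.24 FPKM in the group labelled Rictor -/-, against 25.7 ± 3.20 and 26.1 ± 2.65 FPKM in control, and in neither group could these neighbours be told apart by their ranges. The 5 highest receptors, Fzd10, Fzd6, Fzd1, Fzd7 and Fzd2, held 93.4% to 93.5% of the Frizzled sum in libraries labelled Rictor -/- and 92.9% to 93.7% in controls.

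None of the 8 tested receptors passed limma's threshold, with 1 at an unadjusted p under 0.05. That was Fzd2, at 13.4, 12.3 and 12.1 FPKM in libraries labelled Rictor -/-, against 14.6, 13.7 and 16.1 FPKM in controls. The groups did not overlap, and the difference was -0.22 ± 0.08 (limma adjusted p = 0.0868, and 0.0161 with array weights). Fzd8 had 1.89, 1.85 and 1.56 FPKM against 2.21, 2.16 and 2.14 FPKM, also without overlap (-0.20 ± 0.09, limma adjusted p = 0.160, and 0.0345 with array weights). Fzd5 and Fzd3, the second a receptor of the polarity branch, differed by -0.06 ± 0.09 and 0.05 ± 0.07. Fzd9 and Fzd4, the Norrin receptor of retinal vessels, stayed at or under 0.399 FPKM. Because intervals of the lower receptors reached 0.42 in size, differences of up to that size on the log2 scale are not excluded by these libraries.

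Among the secreted modulators, Sfrp1, which binds Wnts, fell (ENSMUSG00000031548, chromosome 8, 23411502 to 23449632, plus strand). It stood at 5.59, 4.59 and 5.22 FPKM in libraries labelled Rictor -/-, against 8.30, 6.44 and 7.30 FPKM in controls. The groups did not overlap, the ratio of means was 0.699 and the log2 difference -0.44 ± 0.11 (limma adjusted p = 0.0281). The call was lost without any library labelled Rictor -/- and without control 261 (limma adjusted p = 0.0560 to 0.0863), and it held without control 264 (0.0479). Sfrp2, a related inhibitor that dermal fibroblasts also make, pointed the other way, at 1.67, 3.16 and 2.20 FPKM against 1.58, 1.87 and 1.40 FPKM. Its groups overlapped and it did not pass (0.33 ± 0.17, limma adjusted p = 0.209), and the difference between the 2 genes was not tested. Sfrp5 and Sfrp4 stayed at or under 0.238 FPKM.

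Dkk3, the divergent member of its family, was the most abundant of the Sfrp, Dkk and Rspo genes, at 19.47, 20.9 and 20.3 FPKM in libraries labelled Rictor -/-, against 19.6, 17.9 and 20.5 FPKM in controls. The groups overlapped, with an interval of -0.10 to 0.23 for the log2 difference. Dkk4, an Lrp5 and Lrp6 antagonist that in mice is made in hair placodes, had 1.13, 1.43 and 1.18 FPKM against 0.540, 0.429 and 1.74 FPKM. Control 264 was thus the highest of all 6 libraries and the other controls the lowest. With it the difference was 0.30 ± 0.25 (limma adjusted p = 0.414), and without it 0.60 (adjusted p = 0.0241, limma). Array weights, which let libraries count unequally, also called it (limma adjusted p = 0.0151). Dkk1 and Dkk2 stayed at or under 0.0690 FPKM, and the 5 Rspo symbols at or under 0.321 FPKM, with Rspo1 highest. Rspo4 and Rspo4os overlap in position, and no source used here says whether strand was kept, so their low values cannot be told apart.

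The rest of the pathway was read from 5 lists of other genes. These lists were chosen with earlier results of these data known, so their shares of calls are descriptions and not tests. Counted once each, 86 of their 97 genes were tested. The groups did not overlap in 33 of them (38.4%, with 18 higher and 15 lower), beside 45.8% of all tested genes. Of the 86, 8 rose and 8 fell (18.6%, beside 23.5% of all tested genes), and the median log2 difference was -0.01. Of these 16 calls, 8 held under every alternative run, namely Porcn, Tinagl1, Wif1, Dkkl1, Ctnnbip1, Myc, Nkd2 and Cd44. The other 8, Lgr6, Tnks2, Gsk3b, Cby1, Msx2, Bambi, Rac1 and Fuz, lost the call with a term for sex and with 1 library left out, 7 of them without 263, 8 without 265, 8 without 266, 6 without control 261, 4 without control 262 and 0 without control 264. In the list of Wnt secretion and surface partners, 1 of 16 rose and 1 fell (12.5%), with a median of -0.05. Porcn, the enzyme that attaches the lipid to Wnts, fell, with 5.36, 5.61 and 4.94 FPKM in libraries labelled Rictor -/-, against 8.15, 7.84 and 7.03 FPKM in controls (-0.46 ± 0.08, limma adjusted p = 0.0102). Lgr6, an R-spondin receptor of skin stem cells, rose, with 39.7, 47.1 and 42.9 FPKM against 34.9, 34.3 and 29.4 FPKM (0.38 ± 0.10, adjusted p = 0.0310, limma). The most abundant partners did not pass. These were Ryk, a Wnt co-receptor (-0.04 ± 0.06), and Wls, the carrier that brings Wnts to the cell surface (-0.25 ± 0.10, limma adjusted p = 0.104). Wls lay lower without overlap.

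Of 8 tested other secreted proteins linked to the pathway 2 rose and 1 fell (37.5%, beside 23.5% of all tested genes), with a median of -0.04. This share rests on few genes of a list chosen with earlier results known, and no excess of calls was tested. Tinagl1, a matricellular protein, differed most of all genes in the 5 lists. It had 27.2, 30.2 and 23.6 FPKM in libraries labelled Rictor -/-, against 4.58, 4.43 and 5.58 FPKM in controls (2.25 ± 0.11, limma adjusted p = 0.000462). Wif1, a secreted inhibitor that binds Wnts, rose, with 4.52, 6.39 and 4.81 FPKM against 3.02, 1.82 and 2.21 FPKM (0.90 ± 0.17, adjusted p = 0.0118, limma). Dkkl1, a relative of the Dkk proteins, fell, with 100.3, 129 and 114 FPKM against 182, 179 and 196 FPKM (-0.70 ± 0.10, limma adjusted p = 0.00627). None of these 3 had overlapping groups. Apcdd1, a membrane-bound inhibitor at a mean of 181 and 187 FPKM in the groups labelled Rictor -/- and control, and the glypican Gpc3 did not pass (-0.05 ± 0.14 and 0.14 ± 0.07).

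Inside the cell, 2 of 30 pathway genes rose and 2 fell (13.3%, beside 23.5% of all tested genes), with a median of 0.06. Ctnnbip1, an inhibitor that keeps beta-catenin from TCF factors, fell, with means of 90.9 ± 6.05 and 130 ± 11.2 FPKM in the groups labelled Rictor -/- and control (-0.51 ± 0.09). So did Cby1, another beta-catenin antagonist (-0.46 ± 0.13, limma adjusted p = 0.0448). The Cby1 call was also lost after median, trimmed mean or quantile scaling and after length adjustment (limma adjusted p = 0.0552, 0.0505, 0.0601 and 0.0642). Tnks2, a tankyrase that marks Axin for breakdown (0.30 ± 0.06), and Gsk3b, the kinase that marks beta-catenin for breakdown (0.33 ± 0.09), rose. Ctnnb1, the gene of beta-catenin, and the kinase gene Csnk1a1 did not pass (0.11 ± 0.09 and 0.12 ± 0.07), and Csnk1a1 lay higher without overlap. Of 23 tested feedback and target genes 2 rose and 3 fell (21.7%), with a median of -0.03. Myc, a growth-promoting transcription factor, rose to 69.8 ± 6.00 FPKM in the group labelled Rictor -/-, against 43.5 ± 5.24 FPKM in control (0.67 ± 0.10), as did the hyaluronan receptor Cd44 (0.40 ± 0.07). Nkd2, a feedback inhibitor that binds Dishevelled, fell (-0.51 ± 0.08), with the hair matrix factor Msx2 (-0.52 ± 0.12) and the BMP pseudoreceptor Bambi (-0.41 ± 0.10). Msx2 is also among the hair follicle markers above. Ccnd1, the gene of cyclin D1, lay higher without overlap but did not pass (0.31 ± 0.09, limma adjusted p = 0.0537). Other genes of this list, named after their values were seen, did not pass either. The log2 differences were -0.08, -0.13, 0.01 and 0.17 for Axin2, Lef1, Nkd1 and Sp5. For Notum, Lgr5, Rnf43 and Znrf3 they were -0.21, -0.03, -0.00 and 0.30, where Znrf3 lay higher without overlap. Of 17 tested planar cell polarity genes 1 rose, the GTPase gene Rac1 (0.24 ± 0.06), and 1 fell, the ciliary polarity gene Fuz (-0.44 ± 0.11), which is 11.8% of the list, with a median of 0.01. Rhoa and Ptk7 did not pass (0.10 ± 0.11 and -0.07 ± 0.07).

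**Figure D4:**
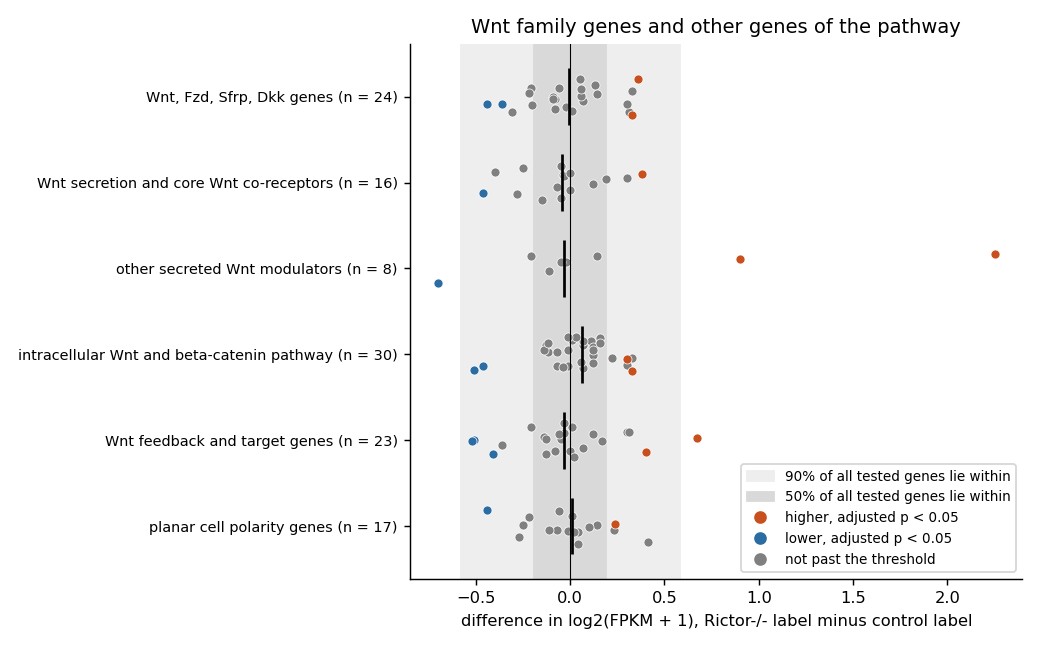
Difference in log2(FPKM + 1) between libraries labelled Rictor -/- and control for the 24 tested Wnt family genes and for 5 lists of other pathway genes, with 1 point per gene, a black line at each median, and grey bands that hold 50% and 90% of all tested genes. The medians lie between -0.05 and 0.06, and Tinagl1 at 2.25 is the point farthest from 0.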

How the data were processed

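RNA was extracted from separated epidermis with a QIAGEN RNeasy Mini kit, and libraries followed standard Illumina steps, per the labels' protocols. CASAVA and Cufflinks were used with GRCm38, per the submitters' processing notes, while no aligner, annotation or version is named in what was used here. The deposited values are FPKM in 1 table with a column per library, per the file headers. Symbols, positions and exon lengths were taken from the GENCODE M21 annotation of GRCm38, where 49195 of 49452 identifiers were found. The highest row per symbol was kept, which left out 75 rows.

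FPKM are not counts, so no count model was used. Genes averaging 1 FPKM or more in one or both groups entered limma 3.58.1 (R 4.3.3) as log2(FPKM + 1), a scale that understates changes of low genes, with an intensity trend, no covariates and 3 libraries per group. P-values are two-sided and Benjamini-Hochberg adjusted over all 13500 tested genes. Intervals of 95% use limma's moderated variance. Alternatives were other pseudocounts, filters, scalings and variance models, a length adjustment, a sex term and each library left out. Members and lists were chosen with earlier results of these data known. Named were all members of at least 1 FPKM on average, and from each pathway list up to 6 called genes by p and the 2 most abundant not called. Further feedback and target genes that were not called were named after their values were seen. Read counts behind single genes are unknown. Figures used Python 3.11.15, pandas 2.3.3 and matplotlib 3.10.9.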

Additional observations from a re-analysis of the deposited data

How the results depend on the processing

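Counts are given as higher and lower. For Wnt family genes they were 2 and 2 as reported, 0 and 0 without a filter on low values and with a sex term, 5 and 5 with array weights, and 4 and 1 after length adjustment. They were 3 and 1 after trimmed mean scaling and 3 and 4 at an adjusted p threshold of 0.10. With 1 library left out they ran from 0 to 2 and from 0 to 3, being 0 and 0 without 266 or without control 261. Where both counts were 0, family genes at an unadjusted limma p under 0.05 numbered 4 higher and 5 lower of 42 tested without a filter, and 3 and 3 of 24 with a sex term, without 266 and without control 261. For genes of the pathway lists, 8 and 8 as reported, they were 16 and 20 with array weights, 4 and 4 with a sex term, 6 and 4 without a filter and 12 and 12 at a threshold of 0.10, and with 1 library left out 4 to 10 and 4 to 11. The number for all genes called was 3169 as reported, 6272 with array weights, 1852 with a sex term and 1462 to 3784 with 1 library left out.

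Some log2 differences near 0, none of them called, changed sign. Wnt10b was 0.06 after length adjustment, 0.02 after quantile normalization, 0.01 with a sex term, 0.05 with libraries scaled by a trimmed mean and 0.02 with scaling by the median. Quantile normalization gave 0.02 for Wnt7a and 0.01 for Fzd5, and length adjustment 0.02 for Wnt3a, 0.01 for Wnt7a and 0.00 for Ryk. Array weights gave 0.04 for Wnt3a, -0.01 for Fzd6, -0.05 for Fzd1 and -0.00 for Fzd3. Trimmed mean scaling gave 0.03 for Ryk, 0.02 for Apcdd1 and 0.00 for Ptk7. With 1 library left out the ranges were -0.08 to 0.03 for Wnt10b, -0.16 to 0.02 for Wnt5a, -0.15 to 0.04 for Wnt3a, -0.32 to 0.18 for Wnt7a, -0.03 to 0.04 for Fzd10, -0.04 to 0.13 for Fzd1, -0.17 to 0.02 for Fzd7, -0.12 to 0.01 for Fzd5 and -0.17 to 0.07 for Apcdd1.

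The called genes Wnt10a, Wnt7b, Wnt11 and Sfrp1 kept their direction in all 18 alternatives, with calls in 12, 11, 10 and 12. The causes of lost calls were not tested, beyond fewer libraries or more genes tested where these define the alternative. No paired analysis was possible because the library numbers differ between the groups and pair nothing. Genes under 1 FPKM, the R-spondins included, are limited by depth, and a low value does not show absence.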
